A study of Caenorhabditis elegans with 12 samples.

Results

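The microRNAs described here mark muscle, neurons and glia, and they were followed in whole Caenorhabditis elegans larvae: cel-miR-1 for muscle, cel-miR-2 and cel-miR-124 for neurons and cel-miR-228 for glia. They were chosen by probe name and by the tissue each is known for. The choice used no measured value as its rule, although it was made with earlier results of these data known. They make up 4 of the 114 C. elegans microRNA probes on the array, and all 4 are among the 50 probes that gave a signal on at least 4 arrays and were tested. Muscle miR-1 gave a signal on 11 of 11 arrays, miR-2 on 9, miR-228 on 7 and miR-124 on 5. In each of 3 strains modelling Parkinson's disease, 0 of the 4 passed the test against wild type, with mean log2 ratios between -0.44 and 0.47. In the cat-1 and pdr-1 mutants miR-124 was measured on 1 array each, so its spread between arrays there is unknown and these values have no replicate check.

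MicroRNAs are short RNAs that guide Argonaute proteins to partly matching messenger RNAs and lower their translation or stability. In the worm, miR-1 is expressed in body wall and pharyngeal muscle, where it tunes nicotinic acetylcholine receptor subunits and the transcription factor MEF-2 at the neuromuscular junction. The worm miR-124, a microRNA of the nervous system in many animals, is found mainly in ciliated sensory neurons, and miR-2 belongs to a seed family with neuronal expression. The promoter of mir-228 is active in glia and is widely used to drive transgenes there. By the WBcel235 gene table, from which neighbours but no positions were taken, mir-124 lies within the span of trpa-1, a cation channel gene, and mir-2 within the span of ppfr-1, a phosphatase regulatory subunit gene. No protein-coding gene of that table spans mir-1 or mir-228.

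Each 2-colour array set small RNA of one strain against small RNA of the wild-type strain N2. One strain expresses human alpha-synuclein with the A53T change from a transgene, the second is CB1111 with the loss-of-function allele e1111 of cat-1, which encodes the vesicular transporter of dopamine and other monoamines, and the third is VC1024 with the allele gk448 of pdr-1, the worm parkin gene. Synchronized worms of all strains were fed OP50 bacteria and collected at larval stage 4, and the labels give 4 independent worm populations for each strain. Wild-type RNA was measured only as an array partner, and the labels do not name the promoter of the alpha-synuclein transgene. N2 carries the first dye and the strain the second on every array, so ratios against N2 cannot tell strain from dye. In a contrast between strains, a dye bias of a probe that is constant over arrays would cancel. RNA came from whole worms, so fewer cells of a type and less of a microRNA per cell cannot be told apart.

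Replicates 3 and 4 of cat-1 have identical scanner files and were counted as 1 array, which left 4 arrays of alpha-synuclein, 3 of cat-1 and 4 of pdr-1. Arrays differed widely in signal, from 14 to 55 of the 114 probes, and 40 probes gave no signal on any array. The median log2 ratio of the C. elegans spots before normalization ran from -0.18 to 4.57. Blank spots held a signal on all 3 cat-1 arrays (15 to 18 of 1059) and on pdr-1 replicate 2 (3), so array background and the cat-1 strain cannot be told apart. All ratios are strain over N2, the likely direction given how the labels order the channels, since which scanner signal is which dye is not stated. Among 15 pairs of arrays of one strain, pdr-1 replicates 1 and 4 alone correlated clearly below 0 (r = -0.56 over 14 probes). With pdr-1 replicates 2 and 3, replicate 1 gave r = 0.10 (12 probes) and 0.04 (14 probes). Replicate 4 gave 0.05 (16 probes) and 0.42 (31 probes) with them. Because of the pair below 0, the direction of replicates 1 and 4 was not taken as settled. The pdr-1 values are also given with either of them turned.

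The 4 microRNAs were detected in a nested order. Every array with miR-124 also gave miR-228, every array with miR-228 gave miR-2, and every array gave miR-1. How often other probes nest in this way was not counted. miR-1 is 1 of 7 probes with a signal on every array, while 18 probes were seen on at least the 9 arrays of miR-2, 33 on at least the 7 arrays of miR-228 and 45 on at least the 5 arrays of miR-124. With a signal required in 2 of the 3 spots of a probe, miR-1 was seen on 11 arrays, miR-2 on 8, miR-228 on 4 and miR-124 on 3. The ranks count arrays, not RNA, and no level of one probe was set against that of another.

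**Figure D1:**
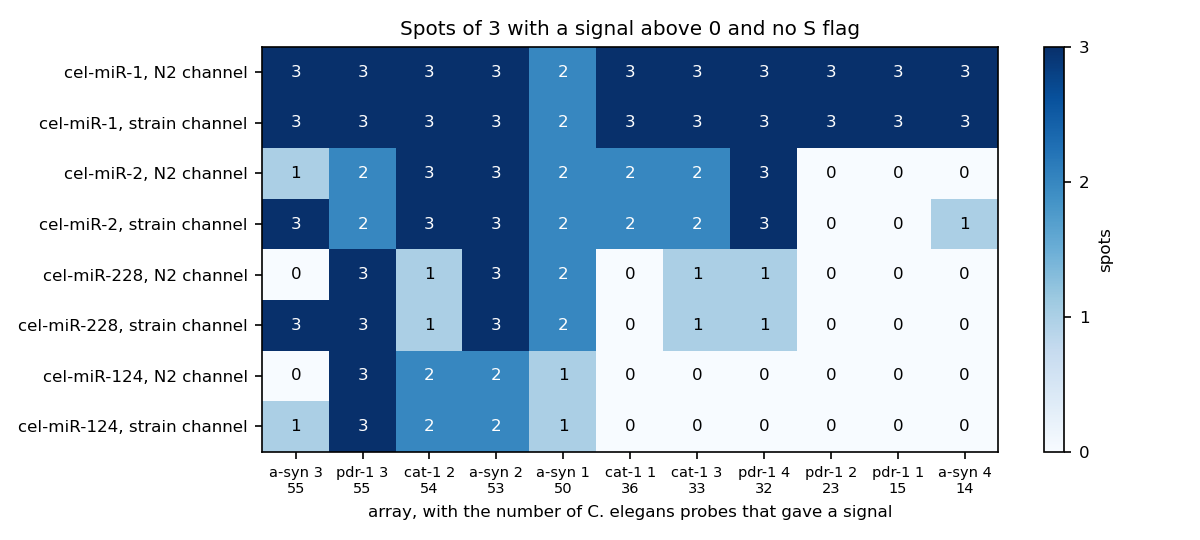
Number of the 3 spots of each probe that held a signal above 0 without an S flag, in the N2 and the strain channel, with arrays ordered from left to right by the number of C. elegans probes that gave a signal (55 down to 14). miR-1 filled 2 or 3 spots on every array, while the filled cells of miR-2, miR-228 and miR-124 thin out towards the arrays with few detected probes.

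Detection of the neuronal and glial microRNAs moved with the signal of the whole array. The 5 arrays with miR-124 gave a signal for 49 to 54 other probes (median 53), and the 6 arrays without it for 14 to 36 (median 27.5). For miR-228 the counts were 31 to 54 (median 52) on 7 arrays against 14 to 36 (median 19) on 4, and for miR-2 they were 13 to 54 (median 49) on 9 against 15 to 23 (median 19) on 2. The ranges do not overlap for miR-124 and overlap for miR-228 and miR-2. The 5 arrays with miR-124 are the 5 with the most detected probes (50 to 55). How many other probes split the arrays in this way was not counted, so the pattern is not shown to be particular to these microRNAs. All 4 members were seen on alpha-synuclein replicates 1, 2 and 3, on cat-1 replicate 2 and on pdr-1 replicate 3. On arrays without a neuronal or glial signal, the detection limit of the array and the strain cannot be told apart.

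For the 4 microRNAs, a signal in the strain channel without one in the N2 channel occurred, and the reverse did not. Over all C. elegans probes the only N2-only spot was 1 on cat-1 replicate 3, where 3 spots were strain-only. The direction is therefore not particular to these microRNAs. The dye order is the same on every array, so strain and dye cannot be told apart here. Of 33 spots per probe, miR-1 held a signal in 32 in each channel. miR-2 held 18 in the N2 channel and 21 in the strain channel, miR-228 held 11 and 14, and miR-124 held 8 and 9. All 3 strain-only spots of miR-228, the 1 of miR-124 and 2 of the 3 of miR-2 were on alpha-synuclein replicate 3, and the other was on alpha-synuclein replicate 4. On alpha-synuclein replicate 3, 45 spots over all C. elegans probes were strain-only, and this array also had the highest median log2 ratio before normalization, 4.57. The part of that array-wide imbalance in the strain-only spots was not tested, and no ratio is given for them.

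**Figure D2:**
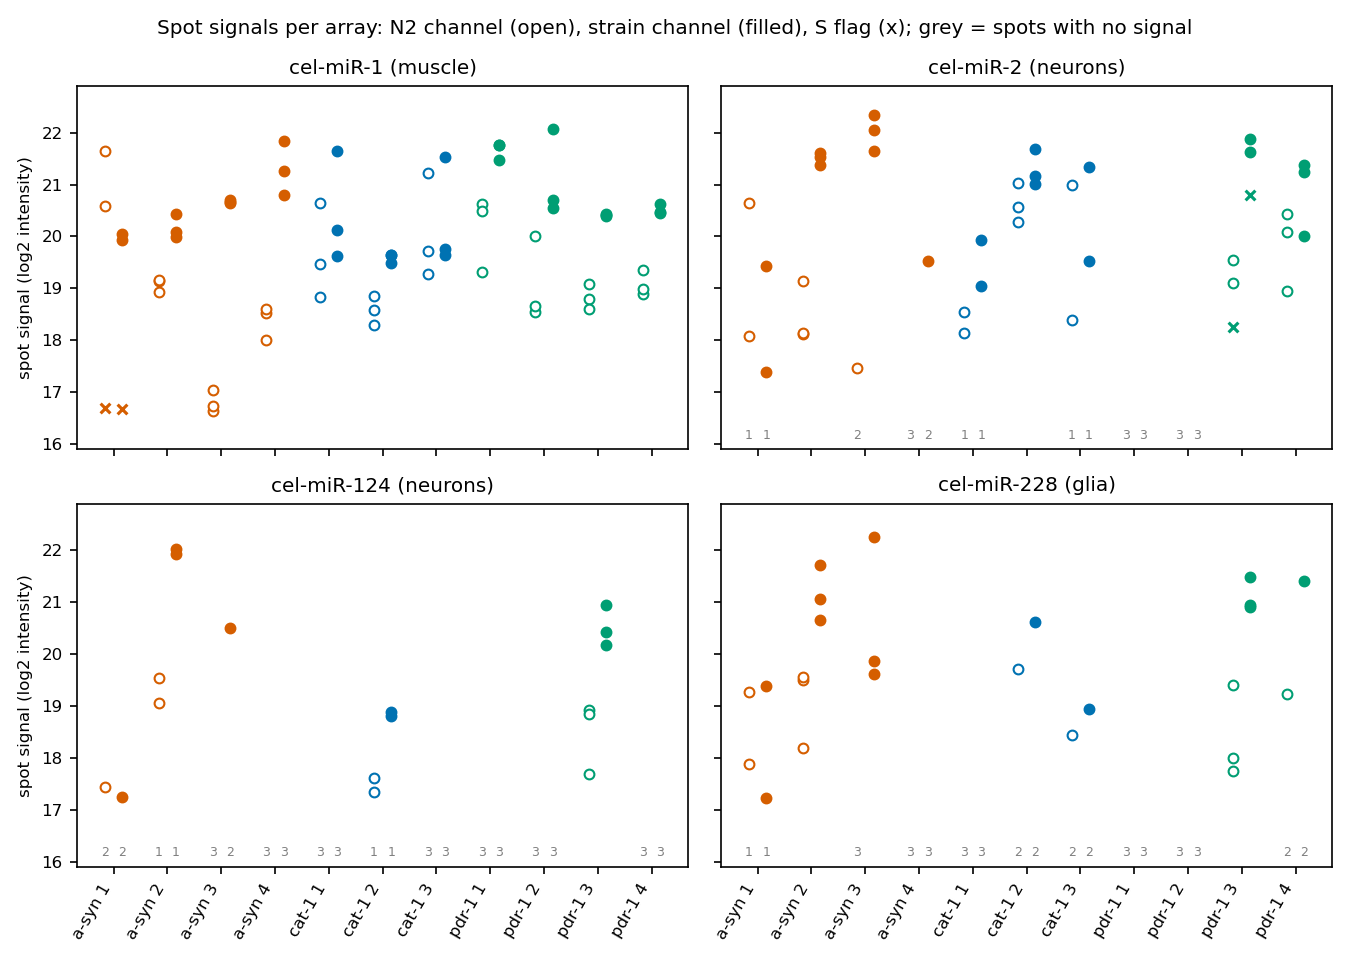
Log2 signal intensity of every spot of the 4 probes by array, with open circles for the N2 channel, filled circles for the strain channel and crosses for spots with an S flag, and with grey digits for the number of spots that held no signal. The mean strain signal of miR-1 lay above its mean N2 signal on all arrays except alpha-synuclein replicate 1, and its N2 spots were lowest on alpha-synuclein replicate 3.

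Muscle miR-1 was measured in both channels of every array. In the N2 channel its mean log2 signal was 21.12, 19.08, 16.80 and 18.38 on the alpha-synuclein arrays, 19.65, 18.57 and 20.07 on the cat-1 arrays and 20.14, 19.08, 18.83 and 19.08 on the pdr-1 arrays, in order of replicate. In the strain channel it was 19.98, 20.16, 20.67 and 21.30 in the alpha-synuclein strain, 20.46, 19.59 and 20.31 in the cat-1 mutant and 21.66, 21.11, 20.42 and 20.51 in the pdr-1 mutant. The strain channel was brighter for miR-1 on 10 of 11 arrays, all but alpha-synuclein replicate 1. Only on that array was the median log2 ratio of all C. elegans spots below 0 (-0.18), so the brightness is not particular to miR-1. Strain and dye cannot be told apart here. After normalization the log2 ratios of miR-1 were -0.95, -0.95, -0.20 and 1.46 in alpha-synuclein, 0.01, 0.35 and 0.03 in cat-1 and 0.23, -0.12, -0.76 and -0.15 in pdr-1. The alpha-synuclein arrays held both the lowest and the highest of these values and enclosed the range of the other strains. Replicate 4 of alpha-synuclein stood above 0 while the other 3 stood below, and its 3 spots gave 2.29, 1.48 and 0.61.

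The neuronal microRNA miR-2 gave a ratio on 8 arrays. Its normalised log2 ratios were -0.77, 1.12 and 0.38 on alpha-synuclein replicates 1 to 3, 0.35, -0.06 and 0.59 on the 3 cat-1 arrays and 0.24 and -0.48 on pdr-1 replicates 3 and 4. The cat-1 and pdr-1 values lie inside the alpha-synuclein range, whose ends are replicates 1 and 2. Spots of one array lay closer to each other than the arrays did in the alpha-synuclein and pdr-1 strains, with 1.54, 1.27 and 0.54 on alpha-synuclein replicate 2, -0.84 and -0.70 on alpha-synuclein replicate 1 and -0.42, -0.49 and -0.53 on pdr-1 replicate 4. In the cat-1 mutant they did not: the spots gave 0.62 and 0.09 on replicate 1 (SD 0.38) and 0.91 and 0.27 on replicate 3 (SD 0.46), against an SD of 0.33 between the 3 arrays. Neither pdr-1 replicate 1 nor pdr-1 replicate 2 gave a miR-2 signal in any of its 3 spots.

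The sensory neuron microRNA miR-124 gave a ratio on only 4 arrays. The values were -0.06 and 0.99 on alpha-synuclein replicates 1 and 2, 0.33 on cat-1 replicate 2 and -0.44 on pdr-1 replicate 3. The pdr-1 value lies below the others, but it comes from 1 array, and the spread of miR-124 in that strain is unknown. Its 3 spots gave -0.28, -0.25 and -0.80. The single alpha-synuclein replicate 1 spot had log2 signals of 17.44 for N2 and 17.25 for the strain, and the 2 spots of replicate 2 had 19.54 and 19.05 for N2 with 22.01 and 21.93 for the strain. The higher ratio thus came from the array of the pair on which the miR-124 spots were brighter.

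Glial miR-228 gave a ratio on 6 arrays, 2 for each strain. The ratios were 0.05 and 0.27 on alpha-synuclein replicates 1 and 2, 0.13 and -0.06 on cat-1 replicates 2 and 3, and 0.31 and 0.02 on pdr-1 replicates 3 and 4. The 3 strains overlap and all 6 values lie within 0.31 of 0. The pooled SD between arrays of a strain was 0.17, the smallest of the 50 tested probes, whereas the SD between spots of one array was 0.67, the fourth largest of 49 probes. The spots of alpha-synuclein replicate 1 gave 0.77 and -0.68, and those of replicate 2 gave 0.82, 0.39 and -0.41. The close agreement of the array means is therefore tighter than the agreement of the spots behind them, and 3 of the 6 ratios rest on 1 spot each.

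Before normalization the ratios of all 4 microRNAs mainly followed the array. Raw log2 ratios of miR-1 were -1.13, 1.09, 3.87 and 2.92 in alpha-synuclein, 0.82, 1.02 and 0.24 in cat-1 and 1.52, 2.04, 1.59 and 1.43 in pdr-1. Those of miR-2 were -0.95, 3.03 and 4.89 in alpha-synuclein, 1.14, 0.66 and 0.74 in cat-1 and 2.43 and 1.05 in pdr-1. For miR-124 they were -0.19 and 2.68 in alpha-synuclein, 1.38 in cat-1 and 2.02 in pdr-1, and for miR-228 -0.26 and 2.06, 0.90 and 0.49, and 2.73 and 2.17. Across arrays the raw ratio rose with the median ratio of all C. elegans spots, with Pearson's r of 0.83 and Spearman's rho of 0.81 for miR-1 (n = 11), 0.94 and 0.93 for miR-2 (n = 8) and 0.99 and 0.94 for miR-228 (n = 6). Both measures come from the same spots and dyes of each array, so these correlations are descriptions only. Normalization lowered the SD over arrays from 1.31 to 0.68 for miR-1, from 1.78 to 0.60 for miR-2, from 1.23 to 0.61 for miR-124 and from 1.15 to 0.15 for miR-228. Its curve runs through the C. elegans spots of each array, these microRNAs among them. A fall was therefore built in and is a description only.

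**Figure D3:**
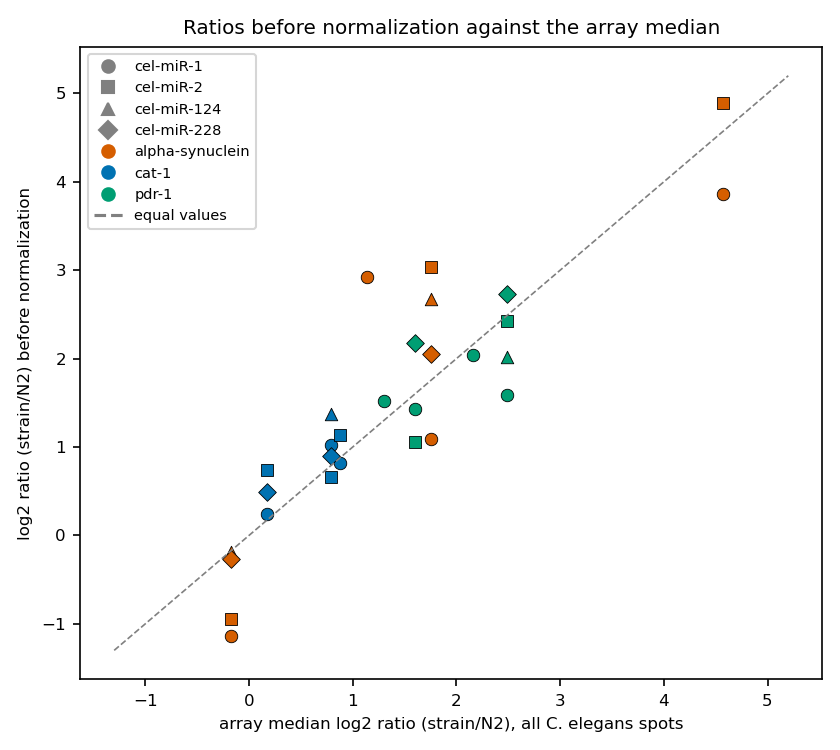
Log2 ratio of strain to N2 before normalization for each of the 4 microRNAs (symbols) against the median log2 ratio of all C. elegans spots on the same array, coloured by strain, with a dashed line of equal values. The points follow the line from an array median of -0.18 to one of 4.57, and the miR-1 point furthest above it is alpha-synuclein replicate 4 (2.92 at a median of 1.14).

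In the alpha-synuclein strain, 0 of the 4 microRNAs passed an adjusted p of 0.05 against N2 by limma, and 0 reached an unadjusted p of 0.05. Over all 50 probes, 5 were called, or 10%, and 10 had an unadjusted p under 0.05. miR-1 had a mean log2 ratio of -0.16 ± 0.32 (SE, n = 4, SD 1.14, below 0 on 3 of 4 arrays, adjusted p = 0.746). Its 95% interval of -0.79 to 0.47 spans 1.73-fold lower to 1.39-fold higher. The SE and the interval come from the spread shared by all tested probes (SD 0.64), not from the 4 arrays of miR-1. These arrays spread more than that, so the interval and its fold bounds are likely too narrow for miR-1 in this strain. With alpha-synuclein fitted alone the interval was -0.96 to 0.64. The sign rests on single arrays: without replicate 4 the mean was -0.70, without replicate 1 it was 0.10 and without replicate 2 it was 0.11.

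The neuronal and glial means in the alpha-synuclein strain were all above 0, with intervals from the same shared spread that include 0. miR-2 stood at 0.24 ± 0.37 (SE, n = 3, SD 0.95, above 0 on 2 of 3 arrays, interval -0.49 to 0.98, adjusted p = 0.672), and at -0.19 without replicate 2. miR-124 stood at 0.47 ± 0.45 (SE, n = 2, above 0 on 1 of 2, interval -0.43 to 1.36, adjusted p = 0.548), and replicate 1 alone gave -0.06. miR-228 stood at 0.16 ± 0.45 (SE, n = 2, above 0 on 2 of 2, interval -0.74 to 1.05, adjusted p = 0.831). The median of the 4 was 0.20, beside a median of 0.14 over the 50 probes tested.

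The cat-1 mutant, in which vesicles cannot load monoamines, gave 0 of 4 members past the threshold, and 0% of the 48 tested probes were called by limma, with 4 at an unadjusted p under 0.05 and 0 members among them. miR-1 lay above 0 on 3 of 3 arrays, with a mean of 0.13 ± 0.37 (SE, SD 0.19, adjusted p = 0.976). The interval of -0.60 to 0.86 spans 1.52-fold lower to 1.82-fold higher. miR-2 stood at 0.29 ± 0.37 (SE, n = 3, SD 0.33, interval -0.44 to 1.03, adjusted p = 0.976). miR-228 stood at 0.04 ± 0.45 (SE, n = 2, interval -0.86 to 0.93, adjusted p = 0.977), and miR-124 at 0.33 on 1 array (interval -0.94 to 1.60 from the spread of all probes, adjusted p = 0.976). The median of the 4 was 0.21, against 0.08 over all tested probes.

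In the pdr-1 mutant 0 of 4 members passed, as did 0% of the 48 probes by limma, with 2 at an unadjusted p under 0.05 and 0 members among them. For miR-1, 3 of 4 arrays were below 0 and the mean was -0.20 ± 0.32 (SE, SD 0.41, interval -0.83 to 0.43, adjusted p = 0.902). It lay at -0.32 with replicate 1 turned and at -0.12 with replicate 4 turned. miR-2 stood at -0.12 ± 0.45 (SE, n = 2, interval -1.02 to 0.77, adjusted p = 0.902) and changed sign, to 0.36, with replicate 4 turned. miR-124 stood at -0.44 on 1 array (interval -1.71 to 0.83, adjusted p = 0.902), and neither turned array measured it. miR-228 stood at 0.17 ± 0.45 (SE, n = 2, interval -0.73 to 1.06, adjusted p = 0.902), and turning replicate 4 gave 0.14. The median of the 4 was -0.16, against -0.00341 over all tested probes.

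**Figure D4:**
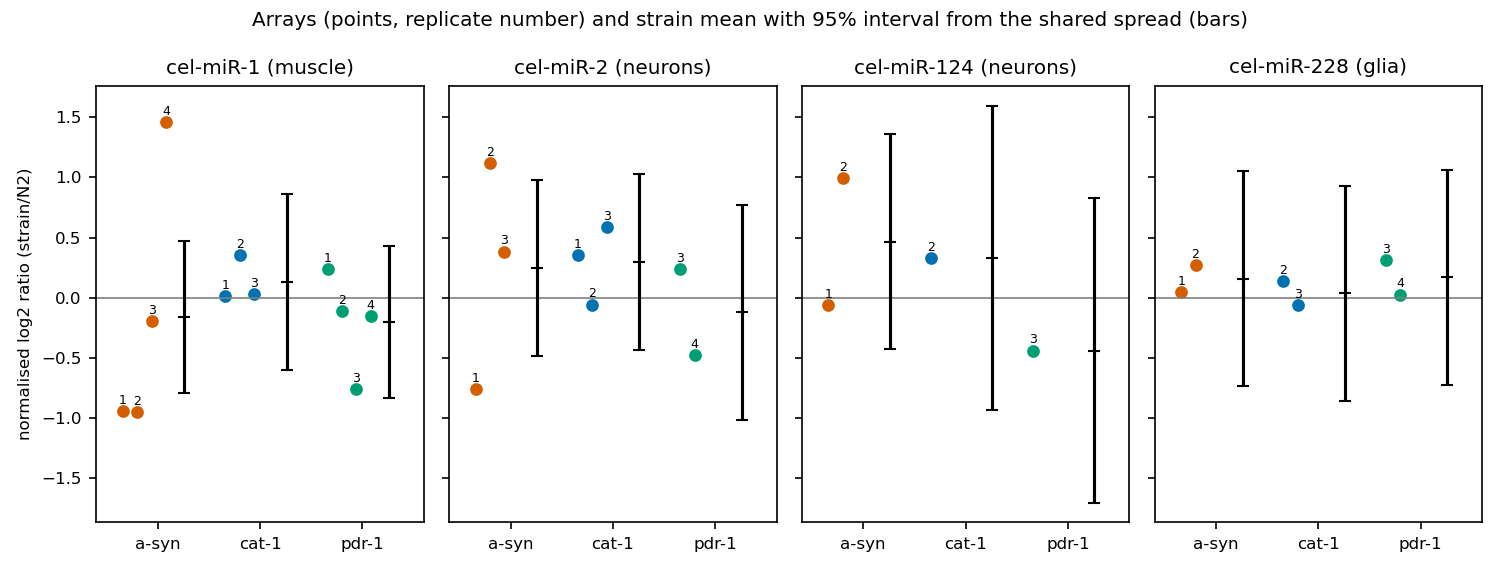
Normalised log2 ratio of strain to N2 for each microRNA, with one point per array numbered by replicate and a bar for the strain mean with its 95% interval from the spread shared by all tested probes. All 12 intervals include 0; the points of alpha-synuclein miR-1 run from -0.95 to 1.46 and those of miR-228 lie between -0.06 and 0.31.

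The shared spread had an SD of 0.64, and each strain by itself had 0.81 (alpha-synuclein), 0.42 (cat-1) or 0.49 (pdr-1). With each strain fitted alone, the intervals of miR-1 became -0.96 to 0.64 in alpha-synuclein, -0.36 to 0.61 in cat-1 and -0.69 to 0.29 in pdr-1. Those of miR-2 became -0.68 to 1.17, -0.19 to 0.78 and -0.82 to 0.57. For all 4 microRNAs the narrower cat-1 intervals include 0, while 8.33% of the 48 probes, 4 in number, were called in that fit. In the fit of alpha-synuclein alone, 2% of 50 probes were called, which is 1 probe and not a member.

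Differences between the strains were tested in the same fit and 0 of 4 members passed in any of them. Between alpha-synuclein and cat-1, 0% of 48 probes were called by limma, with 4 at an unadjusted p below 0.05 and 0 members among them. miR-1 differed by -0.29 ± 0.49 (SE, interval -1.26 to 0.68), miR-2 by -0.05 ± 0.52 (-1.08 to 0.98), miR-124 by 0.14 ± 0.79 (-1.42 to 1.69) and miR-228 by 0.12 ± 0.64 (-1.15 to 1.39). The adjusted p-values ran from 0.951 to 0.958. These intervals do not show that the strains are alike: for miR-124 they hold differences up to 3.22-fold.

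Between alpha-synuclein and pdr-1, 2.08% of 48 probes were called, which is 1 probe and not a member. Among the 12 differences between strains, the largest was that of miR-124, 0.91 ± 0.79 (SE, interval -0.64 to 2.46, adjusted p = 0.901), from 2 arrays at a mean of 0.47 against 1 array at -0.44. miR-2 differed by 0.37 ± 0.59 (interval -0.79 to 1.52, adjusted p = 0.956), and by -0.11 with pdr-1 replicate 4 turned. The muscle and glial differences were 0.04 ± 0.45 for miR-1 (-0.85 to 0.94) and -0.01 ± 0.64 for miR-228 (-1.28 to 1.25), each with an adjusted p of 0.985. With pdr-1 replicate 4 turned they were -0.04 and 0.01, and with replicate 1 turned miR-1 stood at 0.16.

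Between cat-1 and pdr-1, 0% of 46 probes were called by limma, with 0 at an unadjusted p below 0.05. miR-124 differed by 0.77 between 1 array and 1 array, so its SE of 0.91 and interval of -1.02 to 2.56 come from the spread of the other probes and the difference has no replicate check. miR-2 differed by 0.42 ± 0.59 (-0.74 to 1.57), miR-1 by 0.33 ± 0.49 (-0.64 to 1.30) and miR-228 by -0.13 ± 0.64 (-1.40 to 1.13), with an adjusted p of 0.989 for each. With pdr-1 replicate 4 turned, the values were -0.06 for miR-2, 0.25 for miR-1 and -0.11 for miR-228. Replicate 1 turned moved miR-1 to 0.45 and left the other members as they were.

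The N2 channel holds wild-type RNA on every array if the channels are as taken here, and it was compared between the sets of arrays. Levels are given as the log2 signal minus the mean of the 7 probes seen on every array, miR-1 among them, and are compared within a probe only. For miR-1 in N2 they were 0.88, -0.68, 0.18 and -1.59 on the alpha-synuclein arrays, 0.56, -0.70 and -0.31 on the cat-1 arrays and 0.19, 0.04, -0.18 and -0.00436 on the pdr-1 arrays. The lowest of these 11 values, -1.59, was on alpha-synuclein replicate 4, the array with the highest miR-1 ratio. In the strain channel of that array miR-1 stood at 0.49, within the range of -0.45 to 0.87 over all strain channels. The reason for the high ratio of that array was not tested, and the levels rest on 7 reference probes that include miR-1.

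Over all arrays the N2 level of miR-1 had an SD of 0.67 (n = 11) and the strain level one of 0.46 (n = 11). N2 levels of miR-2 were -0.88, -1.28 and 0.84 on alpha-synuclein arrays, -0.74, 1.35 and -0.69 on cat-1 arrays and 0.31 and 0.74 on pdr-1 arrays, with an SD of 0.97 (n = 8). Those of miR-228 were -1.67 and -0.67, 0.44 and -1.94, and -0.63 and 0.15, with an SD of 0.95 (n = 6). The 4 N2 levels of miR-124 were -2.80 and -0.46 on alpha-synuclein arrays, -1.80 on cat-1 replicate 2 and -0.53 on pdr-1 replicate 3. For miR-2 the N2 levels of the 3 sets of arrays overlapped, and for miR-228 both alpha-synuclein arrays lay just below both pdr-1 arrays. How many other probes separate in this way was not counted, so no meaning is given to it.

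In the strain channel, the miR-2 levels were -0.70, 0.89, 1.19 and -1.28 in alpha-synuclein, -0.23, 1.45 and 0.21 in cat-1 and 1.08 and 0.37 in pdr-1. Levels of miR-124 were -1.87, 1.36 and -0.33 in alpha-synuclein, -0.98 in cat-1 and -0.16 in pdr-1. Those of miR-228 were -0.81, 0.53 and -0.25, then 0.78 and -1.28, then 0.44 and 0.90. For miR-2 on the cat-1 arrays, replicate 2 was highest in N2 and in the mutant. The other strains did not repeat this. On pdr-1 replicates 3 and 4, miR-2 levels of 0.31 and 0.74 in N2 went with 1.08 and 0.37 in the mutant. On alpha-synuclein replicate 2 the lowest N2 level of miR-2, -1.28, went with a strain level of 0.89.

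**Figure D5:**
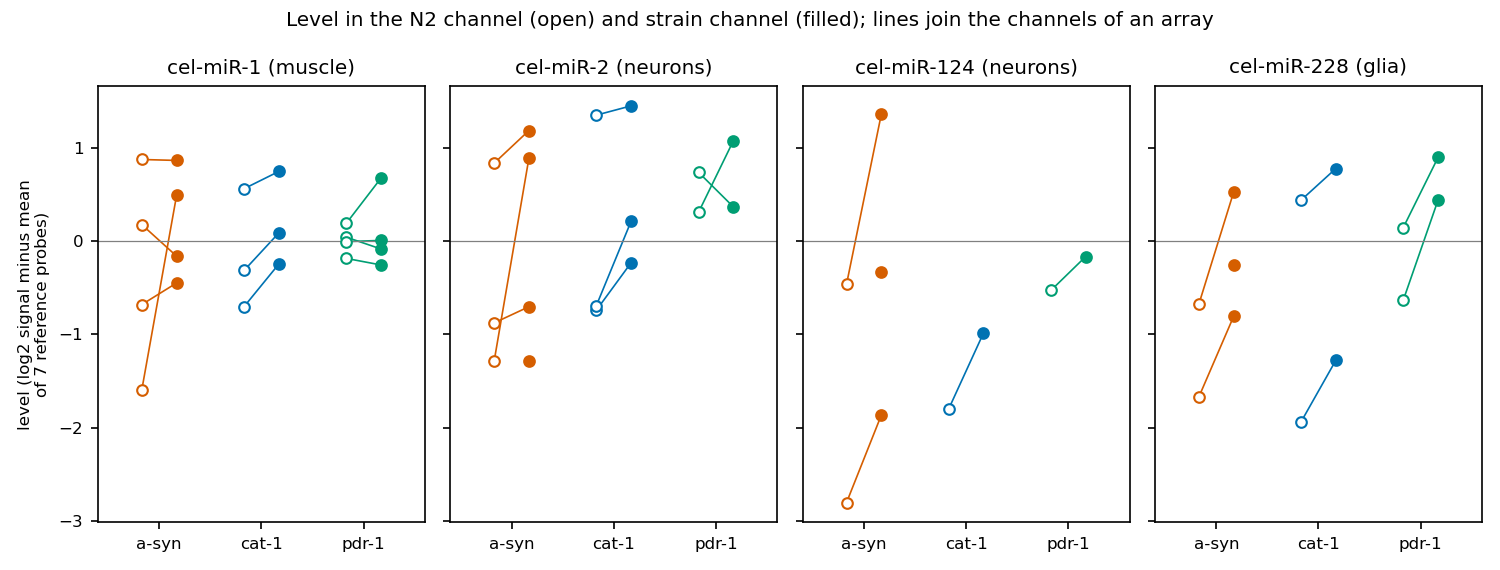
Level of each microRNA, as log2 signal minus the mean of 7 reference probes, in the N2 channel (open) and the strain channel (filled), with a line joining the channels of one array and no line where one channel held no signal. N2 levels of the same microRNA ran from -1.59 to 0.88 for miR-1 and from -1.28 to 1.35 for miR-2, and the steepest miR-1 line is alpha-synuclein replicate 4.

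When the N2 channels of the 3 sets of arrays were compared, 0% of 48, 48 and 46 probes were called by limma, with 2, 2 and 1 at an unadjusted p under 0.05. The 4 members had adjusted p-values from 0.916 to 0.992. The N2 level of miR-1 differed by -0.15 ± 0.73 (SE) between alpha-synuclein and cat-1 arrays, by -0.32 ± 0.67 between alpha-synuclein and pdr-1 arrays and by -0.16 ± 0.73 between cat-1 and pdr-1 arrays. The largest N2 differences were those of miR-124, at -1.27 ± 1.35 between cat-1 and pdr-1 arrays and -1.10 ± 1.17 between alpha-synuclein and pdr-1 arrays. The standard errors of these miR-1 and miR-124 differences are above their size. Between alpha-synuclein and pdr-1 arrays miR-2 differed by -0.97 ± 0.87, more than its SE, and miR-228 by -0.93 ± 0.95. The median of the 4 there was -0.95, against -0.32 over all tested probes. Between cat-1 and pdr-1 arrays they differed by -0.55 ± 0.87 (miR-2) and -0.51 ± 0.95 (miR-228). Between alpha-synuclein and cat-1 arrays the values were -0.42 ± 0.78 and -0.42 ± 0.95. With the channels of pdr-1 replicate 4 exchanged, the differences from pdr-1 arrays became -0.78 and -0.37 for miR-2 and -1.305 and -0.88 for miR-228 (alpha-synuclein and cat-1 arrays, in that order), and with those of replicate 1 exchanged they became -0.44 and -0.28 for miR-1. No member passed with either exchange.

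The authors' deposited table gives its own log2 ratios for these probes. For miR-1 the means of its spots in the authors' deposited table were -0.53, 0.40, -0.79 and 2.19 in alpha-synuclein, -0.09, 0.30, 0.11 and -1.41 in cat-1 and 0.44, -0.09, -0.71 and -0.18 in pdr-1. The alpha-synuclein replicate 4 value is again the highest and the sign of alpha-synuclein replicate 2 is opposite to that from its scanner file. In the authors' deposited table the cat-1 replicate 4 column, whose scanner file repeats replicate 3, holds the lowest miR-1 value, with spots from -2.79 to -0.69. That column shares 39 spots with the replicate 3 column, at a correlation of 0.60, and has 29 spots that the latter lacks, so it could not be matched to the file given for it.

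The neuronal and glial values of the authors' deposited table overlapped between strains for miR-2. In the authors' deposited table miR-2 stood at -0.72, 1.48 and 0.23 in alpha-synuclein, 0.24, -0.06, 0.61 and 0.80 in cat-1 and 0.16 and -0.56 in pdr-1. In the authors' deposited table miR-124 stood at 0.04 and 0.11 in alpha-synuclein, 0.65 in cat-1 and -0.28 in pdr-1. miR-228 in the authors' deposited table stood at -0.03 and -0.12 in alpha-synuclein, 0.18, 0.37 and 0.22 in cat-1 and 0.43 and 0.56 in pdr-1. There the miR-228 values of the 3 strains do not overlap as deposited, but with the sign of pdr-1 replicate 4 turned the pdr-1 values would enclose the others. Each strain has few values, and how many other probes separate in this way was not counted, so the separation is no result about miR-228. Fitted to the authors' deposited table, miR-228 differed by -0.57 between alpha-synuclein and pdr-1 (limma, adjusted p = 0.496). The widest gap from the scanner-based values among the neuronal and glial microRNAs was that of miR-124 on alpha-synuclein replicate 2, 0.11 against 0.99, on an array whose column could not be matched to its scanner file by a constant shift.

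The 4 microRNAs differed in how repeatable their ratios were. The SD between arrays of a strain was 0.75 for miR-1 and for miR-124, 0.67 for miR-2 and 0.17 for miR-228, beside a median of 0.58 over the tested probes. Between spots of one array the SD was 0.39 for miR-1, 0.23 for miR-124, 0.32 for miR-2 and 0.67 for miR-228, beside a median of 0.39. For miR-1, miR-2 and miR-124 the arrays thus spread more than the spots, and for miR-228 the reverse held. The miR-124 value between arrays rests on a single pair.

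Ratios of the members were also set against each other across arrays. miR-1 and miR-2 had r = -0.03 and rho = -0.07 over 8 arrays and the same sign on 4 of them. miR-1 and miR-228 had r = -0.50 and rho = -0.43 over 6 arrays and the same sign on 1. miR-2 and miR-228 had r = 0.41 and rho = 0.26 over 6 arrays, and r turned to -0.46 without the 2 arrays furthest from the median of miR-228. miR-124 was measured on too few arrays. All such points share an array, its depth and its normalization.

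The probes most like each member in their ratios over arrays were chosen by Pearson's r with at least 6 arrays in common. For miR-1, of 38 probes compared, these were miR-80 (r = 0.90, rho = 0.93, n = 11), let-7 (r = 0.83, rho = 0.83, n = 10) and miR-64 (r = 0.68, rho = 0.49, n = 11). Without the 2 arrays furthest from the miR-1 median, r was 0.89, 0.63 and 0.55. For miR-2, of 35 compared, they were miR-53 (0.77, rho 0.64, n = 8), miR-230 (0.73, rho 0.66, n = 6) and miR-84 (0.60, rho 0.29, n = 8), with 0.48, -0.33 and 0.63 without 2 arrays. For miR-228, of 20 compared, they were miR-53 (0.51, rho 0.49), miR-63 (0.45, rho 0.77) and miR-2 (0.41, rho 0.26), each over 6 arrays. Leaving out 2 arrays turned the first of these to -0.73 and moved miR-63 to 0.52. Of all these pairs, miR-1 and miR-80 changed least.

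Other members of the seed families and of the marker lists added little. In the miR-2 seed family, miR-43 gave a signal on 1 array, cat-1 replicate 2, with a log2 ratio of -0.52, and miR-250 gave none. In the neuronal list, lsy-6, which sets left-right identity in a pair of taste neurons, and miR-273 gave no signal, so 2 of 4 listed members, miR-2 and miR-124, were tested and 0 were called in any comparison. miR-796 and miR-797, relatives of miR-1 and miR-2, had no probe of their own name among the C. elegans probes. Among markers of other tissues, 5 of 8 embryonic and germ line microRNAs of the miR-35 family gave a signal, on 1 or 2 arrays each, and 0 were tested. The intestinal miR-60 gave a signal on 6 arrays and stood at -0.22 in alpha-synuclein (adjusted p = 0.746) and at 0.10 in cat-1 (adjusted p = 0.976).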

How the data were processed

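Small RNA was labelled and hybridised to 2-colour NCode arrays, per the labels' protocols. For each spot the deposited scanner files list an intensity and a flag for both channels, per the file headers, with no background column. How background was corrected is not given in the sources used here, and a signal above 0 was taken as above background. Log2 ratios fill the value table that the authors deposited. Of its 12 columns, 10 equal the scanner log2 ratio minus a constant; alpha-synuclein replicate 2 and cat-1 replicate 4 do not, and their centring remains unknown. Column medians were 0.07, 0.27, -0.06 and 0.40 (alpha-synuclein), -0.03, 0.08, 0.03 and 0.13 (cat-1) and 0.20, 0.05, 0.19 and -0.03 (pdr-1). The table has 0 further columns of per-sample values.

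S-flagged spots were not used. A loess curve through the C. elegans spots of each array (span 0.3, 4 iterations, other spots at a weight of 1e-06) normalised the log2 ratios, and the 3 spots of a probe were averaged. Testing used limma 3.58.1 in R 4.3.3 on the 50 probes that gave a signal on 4 or more of 11 distinct arrays, with 1 mean per strain, 1 shared spread (prior degrees of freedom were infinite), two-sided, and Benjamini-Hochberg adjustment over all tested probes at 0.05. A ratio needs both channels, so n differs between microRNAs. The number of arrays limits the precision. The model fit was tested on simulated normalised ratios, while normalization, spot averaging and filters were not. The microRNAs named are the 4 members, the 3 probes most like each over at least 6 arrays, and members of the marker lists. The members and lists were chosen with earlier results of these data known. Alternatives changed normalization, filters, flags, averaging, the spread, the replicate block, the sign or channels of pdr-1 arrays (the latter chosen after seeing the data), the value table and each array left out; no dates or slides were given to test as batches.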

Additional observations from a re-analysis of the deposited data

How the results depend on the processing

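For the strains against N2, 283 values of the 4 microRNAs were recomputed under other settings, and 17 changed direction. For strain contrasts 32 of 281 did and for N2 levels 18 of 212. Many of these values could not change direction. Leaving out or turning an array of another strain leaves a strain's mean as it was, and some settings alter only the spread or the adjustment. The shares are therefore no measure of how stable the signs are. Only miR-2 in alpha-synuclein without normalization within arrays passed the threshold (2.32, limma, adjusted p = 0.0424). In that setting 18 of the 50 tested probes were called in alpha-synuclein, so the call is not particular to miR-2. The median of all probes was then 1.84 in alpha-synuclein, 0.78 in cat-1 and 2.08 in pdr-1. The causes were not tested. Requiring 2 spots lowered the arrays with miR-124 from 5 to 3 and with miR-228 from 7 to 4.

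Without normalization within arrays, miR-1 turned to 1.69 in alpha-synuclein and 1.65 in pdr-1, and in pdr-1 miR-124 turned to 2.02 and miR-2 to 1.74. Contrasts turned to 1.00, -0.13 and 1.48 for miR-1, miR-124 and miR-2 (alpha-synuclein against cat-1), to -0.78 for miR-124 (alpha-synuclein against pdr-1) and to -0.95, -0.65 and -0.89 for miR-1, miR-124 and miR-2 (cat-1 against pdr-1). With median centring, alpha-synuclein against cat-1 turned to -0.13 for miR-124, 0.038 for miR-2 and -0.11 for miR-228, and with scale normalization to -0.090 for miR-124. The authors' deposited table gave 0.32 for miR-1 and -0.075 for miR-228 in alpha-synuclein and -0.27 for miR-1 in cat-1. Its contrasts were 0.59, -0.58 and -0.33 for miR-1, miR-124 and miR-228 (alpha-synuclein against cat-1) and -0.14 for miR-1 (cat-1 against pdr-1). Without its cat-1 replicate 4 column, a choice made after seeing the data, alpha-synuclein stood at 0.32 for miR-1 and -0.075 for miR-228, and its contrast with cat-1 was 0.21, -0.58, 0.065 and -0.35 for miR-1, miR-124, miR-2 and miR-228. With pdr-1 replicate 4 turned, miR-2 in pdr-1 was 0.36, contrasts with alpha-synuclein were -0.036, -0.11 and 0.013 for miR-1, miR-2 and miR-228, and miR-2 in cat-1 against pdr-1 was -0.063.

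N2 levels of miR-1 turned to 0.092 (alpha-synuclein against pdr-1 arrays) and 0.27 (cat-1 against pdr-1 arrays) relative to the array median. Without scaling, miR-228 turned to 0.021 for alpha-synuclein against pdr-1 arrays and to 0.27 for cat-1 against pdr-1 arrays, and miR-1 to 0.15 for the latter.

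Same-numbered arrays of different strains did not deviate together: of 10 pairs, 1 correlated above 0.1 (range -0.78 to 0.12), so the numbers were not taken to pair samples. With a replicate block, miR-228 in cat-1 turned to -0.091, N2 levels of miR-1 to 0.064 (alpha-synuclein against cat-1 arrays) and of miR-124 to 0.066 (alpha-synuclein against pdr-1 arrays), and the alpha-synuclein calls went from 5 to 3. The block gave 0 member calls.

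Leaving out 1 array at a time gave, in alpha-synuclein, -0.70 to 0.11 for miR-1, -0.064 to 0.99 for miR-124 and -0.19 to 0.75 for miR-2. It gave -0.061 to 0.13 for miR-228 in cat-1 and -0.48 to 0.24 for miR-2 in pdr-1. Alpha-synuclein against cat-1 ran from -0.39 to 0.66 for miR-124 and -0.49 to 0.46 for miR-2. Alpha-synuclein against pdr-1 ran from -0.50 to 0.31 for miR-1, -0.070 to 0.87 for miR-2 and -0.16 to 0.13 for miR-228, and cat-1 against pdr-1 from -0.28 to 0.012 for miR-228. N2 levels between alpha-synuclein and cat-1 arrays ran from -0.55 to 0.28 for miR-1, -1.005 to 1.34 for miR-124, -1.05 to 0.27 for miR-2 and -1.61 to 0.76 for miR-228. Between alpha-synuclein and pdr-1 arrays they ran from -0.71 to 0.11 for miR-1 and -2.27 to 0.066 for miR-124. Between cat-1 and pdr-1 arrays they ran from -0.52 to 0.11 for miR-1 and -1.69 to 0.68 for miR-228.

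Of calls over all probes, alpha-synuclein had 5 against N2, and 8 with median centring, 18 without normalization, 1 with scale normalization, 3 with ratios on at least 6 arrays, 1 when fitted alone, 3 with pdr-1 replicate 4 turned and 1 to 5 with 1 array left out. Fitted alone, cat-1 had 4 calls against N2, and scale normalization gave 1 each in cat-1, in pdr-1 and in cat-1 against pdr-1, all against 0. The 1 call of alpha-synuclein against pdr-1 became 0 without normalization, when fitted alone, in the authors' deposited table with and without the cat-1 replicate 4 column, and in some fits with 1 array left out (0 to 1). Alpha-synuclein against cat-1 had 0 to 1 with 1 array left out. In the N2 channel, alpha-synuclein against cat-1 arrays had 1 call in place of 0 relative to the array median, with S-flagged spots kept and without miR-1 among the reference probes. That contrast and cat-1 against pdr-1 arrays had 0 to 1 with 1 array left out. Where an array left out reduced a strain to 1 array of a probe, that array was assumed to vary like the others.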
